A study of Arabidopsis thaliana with 48 samples.

Results

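The xyloglucan endotransglucosylase/hydrolase (XTH) family of Arabidopsis thaliana was followed through the ribosome-bound mRNA of 6-day-old roots. Its 33 members, XTH1 to XTH33, were chosen by locus code, and each had 1 entry among the 33715 entries of the count table. The test kept 30 of them. The other 3 had too few reads: XTH1 (AT4G13080) had 0 counts over all libraries, XTH3 (AT3G25050) had 2 and XTH25 (AT5G57550) had 93. Each library came from roots in which a FLAG-tagged ribosome was expressed from 1 promoter, and RNA bound to the tagged polysomes was purified. In 3 lines the background was bri1-116, a mutant of the brassinosteroid receptor BRI1, and a BRI1 transgene was added. These were pGL2(pGL2BRI1), with the tag and BRI1 both from the epidermal pGL2 promoter, pSCR(pSCRBRI1), with both from the endodermal pSCR promoter, and pGL2(pSCRBRI1), labelled as tag from pGL2 and BRI1 from pSCR. The other 5 lines were Col-0 with the tag from pBRN2 (lateral root cap and columella), pGL2 (epidermis), pSCR (endodermis), pSHR (stele) or 35S (whole root). All 8 lines received 100 nM brassinolide, an active brassinosteroid, for 0, 3 or 8 h, with 2 libraries per group and 48 in all. Total counts ran from 20556381 to 37685541 per library.

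XTH enzymes act in the cell wall on xyloglucan, a glucan chain with xylose side branches that coats and ties cellulose. Most members cut a xyloglucan chain and join the new end to another chain, so that the network can be rearranged while a cell grows. XTH31 and XTH32 form the group in which the cut end is passed to water instead. Brassinosteroids promote cell elongation, and TCH4 (XTH22) is a textbook example of an XTH gene induced by touch and by brassinosteroid. XTH33 differs from other members in carrying a predicted membrane anchor.

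The members are close in sequence, and the reads were 50 bases long, so the coding sequence around the catalytic site is shown at that length to make clear how far near paralogs can be told apart. Each line runs 5′ to 3′ on the coding strand, from the TAIR10.1 genome and RefSeq annotation, and the capitals mark the 5 codons of the catalytic core. The core was searched as glutamate, then isoleucine, valine, leucine or methionine, then aspartate, then phenylalanine, isoleucine, methionine, valine, leucine, tyrosine or cysteine, then glutamate. That pattern was found once in 31 of the 33 members. XTH9 and XTH11 had no match to it, and a looser pattern was not searched.
XTH17 (chr1:24257670-24257719, plus strand): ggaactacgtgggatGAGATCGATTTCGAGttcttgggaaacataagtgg
XTH18 (chr4:14826558-14826607, minus strand): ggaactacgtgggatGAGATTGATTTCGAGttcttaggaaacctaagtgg
XTH19 (chr4:14829550-14829599, minus strand): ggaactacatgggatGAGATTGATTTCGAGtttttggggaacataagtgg
XTH20 (chr5:19482553-19482602, plus strand): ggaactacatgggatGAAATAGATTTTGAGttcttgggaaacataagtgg
XTH15 (chr4:8137771-8137820, minus strand): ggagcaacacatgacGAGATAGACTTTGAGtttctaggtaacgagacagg
XTH16 (chr3:8550586-8550635, plus strand): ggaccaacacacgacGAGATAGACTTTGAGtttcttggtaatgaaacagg
XTH22 (chr5:23307828-23307877, minus strand): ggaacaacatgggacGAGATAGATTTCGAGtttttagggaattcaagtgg
XTH23 (chr4:13129060-13129109, plus strand): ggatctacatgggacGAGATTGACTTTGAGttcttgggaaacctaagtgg
XTH33 (chr1:3480295-3480344, minus strand): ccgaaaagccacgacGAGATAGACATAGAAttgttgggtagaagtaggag
XTH17 and XTH18 differed at 3 of these 50 bases, XTH17 and XTH19 at 4, and XTH18 and XTH19 at 5. XTH22 and XTH23 differed at 11. Over the whole exons, 28 members had no 50-base window that occurred anywhere else in the genome. XTH18 shared 2.11 percent of its windows with XTH19, and XTH19 shared 2.14 percent with XTH17 or XTH18. XTH21 had 10.17 percent of its windows elsewhere, in no other member of the family, and its counts are the least certain in this respect. The deposited TAIR10 positions overlapped the reference gene of the same locus for 99.975 percent of the entries compared.

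Markers of the labelled tissue were at a median of at least 62.5 percent of their 0 h level in the matching Col-0 line in every library of pBRN2, pGL2, pSCR, pSHR, pGL2(pGL2BRI1) and pSCR(pSCRBRI1). For pBRN2, pGL2, pSCR and pSHR that reference was the line itself, so this share cannot test their labels. Over the other Col-0 tissue lines, root cap markers reached 4.61 percent at most, in pGL2. Non-hair epidermis, endodermis and stele markers reached 13.5, 8.16 and 15.5 percent at most, all in pBRN2. These are medians and do not describe every marker. Summed, the 5 non-hair epidermis markers stood at 88.1 to 214 CPM in pBRN2, against 163 to 411 CPM in pGL2. The libraries labelled pGL2(pSCRBRI1) went against their label. In those 6 libraries 8 endodermis markers were at a median of 68.2 to 106 percent of their pSCR level, and 5 non-hair epidermis markers were at 2.12 to 3.23 percent of their pGL2 level. Within pGL2(pGL2BRI1), replicate 2 at 0 h, replicate 1 at 3 h and replicate 2 at 8 h held the endodermis markers at 27.5, 14.1 and 33.2 percent of the pSCR level, against 1.44 to 2.58 percent in the other libraries of that line. These 3 libraries lack a note on read length that the other 3 carry. Every library of pSCR and pGL2(pSCRBRI1) carries that note, and no library of 35S, pBRN2 or pSHR does. In comparisons of pSCR with 35S or pSHR, the line and the note therefore cannot be told apart. In pGL2 and pSCR(pSCRBRI1) some libraries carry it and some do not. Green tissue markers summed to 430.2 CPM in 35S at 3 h, replicate 1, and to 559 CPM in 35S at 8 h, replicate 2, and to 34.6 to 89.9 CPM in the other 35S libraries. Values are in CPM, counts scaled to the TMM library size, and are means ± SD of 2 libraries unless a library is named. A gene rose, fell or changed, or was higher or lower, only where the edgeR quasi-likelihood test over 20995 genes gave an adjusted p under 0.05 after Benjamini-Hochberg adjustment. In these bulk fractions fewer cells of a type and less RNA per cell cannot be told apart.

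Before treatment the members differed in the line where their mean was highest. Of the 30 members tested, 10 had their highest mean in pBRN2, 9 in pGL2, 5 in pSCR, 5 in pSHR and 1 in the 35S whole root. This ranking was not tested, and the same count over all genes was not made. Some ranks were near ties, as the highest mean was 1.02, 1.03, 1.04 and 1.13 times the next in XTH27, XTH31, XTH32 and XTH14. Summed over the family, pGL2 held 4114 ± 272 CPM, against 1974 ± 245 in pBRN2, 1467 ± 179 in pSCR, 1309.5 ± 2.42 in pSHR and 1967 ± 33.4 in 35S.

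**Figure D1:**
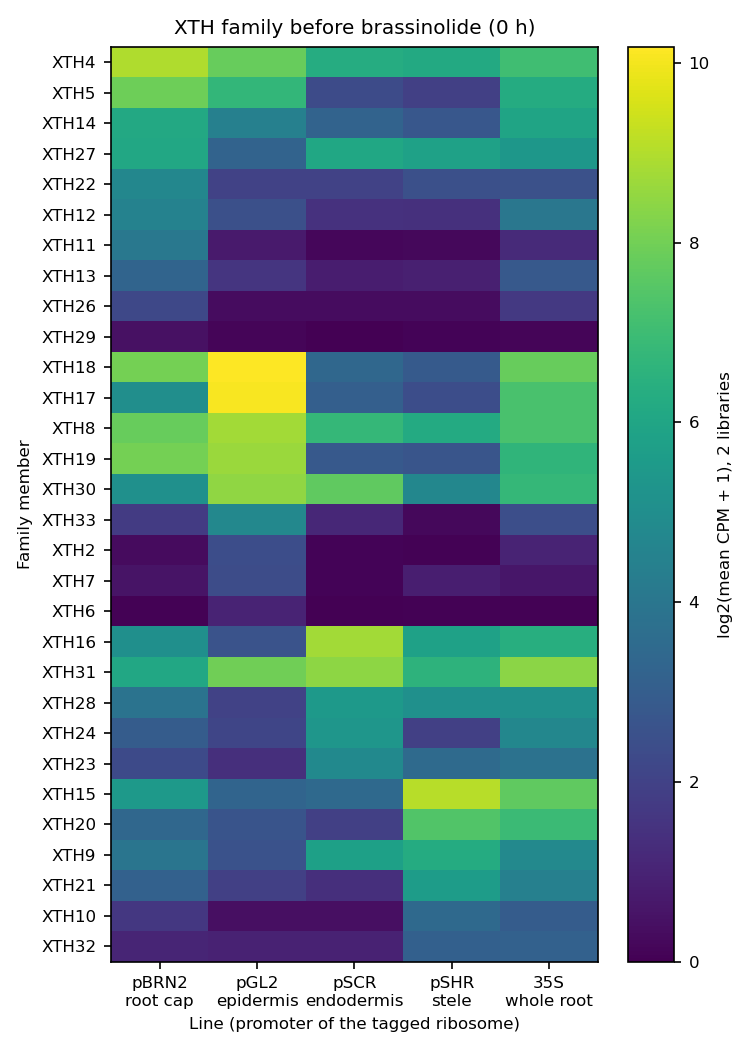
Mean level of the 30 tested XTH members at 0 h in the 5 Col-0 lines, as log2(mean CPM + 1) of 2 libraries, with members sorted by the line in which they are highest. XTH17 and XTH18 stand out in pGL2 at 1076 and 1155 CPM, XTH15 in pSHR at 541 CPM and XTH16 in pSCR at 432 CPM.

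In the epidermal line pGL2, 10 members were higher and 15 lower than in 35S, where 23 percent of all genes tested were higher and 25.9 percent lower. The median log2 change was -1.31 over the members and -0.12 over all genes. The root-expressed paralogs XTH17 (AT1G65310, chromosome 1, 24257216 to 24258473), XTH18 (AT4G30280, chromosome 4, 14825808 to 14827047) and XTH19 (AT4G30290, chromosome 4, 14828712 to 14830016) were among the higher members. XTH17 stood at 987 and 1166 CPM in pGL2, against 147 and 159 CPM in 35S, a log2 change of 2.81 ± 0.35 (SE, edgeR adjusted p = 1.68e-07). XTH18 stood at 1112 and 1198 CPM in pGL2, against 213 and 232 CPM in 35S (log2 change 2.37 ± 0.39 SE, edgeR adjusted p = 1.28e-05). XTH19 stood at 376 and 424 CPM in pGL2, against 105 and 97.3 CPM in 35S (log2 change 1.98 ± 0.39 SE, edgeR adjusted p = 0.000112). Every pGL2 library was above every 35S library for these 3 members, and in pSCR and pSHR at 0 h none of the 3 passed 12.4 CPM in any library. Per kilobase of exon, XTH18 at 1102 ± 58.0 and XTH17 at 1026 ± 121 CPM had the highest levels of the family in pGL2, and the 2 ranges overlapped, while XTH8, the next, stood at 385 ± 5.45 CPM per kilobase.

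The other members higher in pGL2 than in 35S were XTH30 at 353 ± 68.2 against 109 ± 7.51 CPM, XTH8 at 436 ± 6.17 against 151 ± 9.92 CPM, XTH4 at 224 ± 21.9 against 134 ± 2.85 CPM, XTH33 at 28.6 and 23.5 against 4.49 and 4.32 CPM, and 3 weakly read members. These were XTH2 at 4.30 ± 2.09 against 1.03 ± 0.0117 CPM, XTH7 at 4.14 ± 0.122 against 0.545 ± 0.0705 CPM and XTH6 at 1.00 ± 0.204 against 0.0313 ± 0.0443 CPM. The 15 lower members were led by XTH15 at 8.61 ± 1.96 CPM in pGL2 against 206 ± 10.7 CPM in 35S, XTH20 at 5.24 ± 2.21 against 122 ± 3.60 CPM, XTH10 at 0.333 ± 0.0646 against 6.71 ± 0.122 CPM, XTH16 at 5.12 ± 2.38 against 81.7 ± 1.98 CPM and XTH28 at 3.07 ± 0.175 against 33.9 ± 4.25 CPM. XTH29 was near 0 throughout, with its highest 0 h mean at 0.370 ± 0.296 CPM in pBRN2, and passed in no comparison.

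In the root cap line pBRN2, 6 members were higher than in 35S and 13 lower, where 18.1 percent of all genes were higher and 22.9 percent lower. The median log2 change was -0.55 over the members and -0.14 over all genes. XTH11 (AT3G48580, chromosome 3, 18007165 to 18008463) had the largest difference of the higher members, with 22.1 and 9.48 CPM in pBRN2 against 1.59 and 1.10 CPM in 35S (log2 change 3.55 ± 0.51 SE, edgeR adjusted p = 2.36e-06). In pGL2, pSCR and pSHR at 0 h its highest library stood at 0.779 CPM. XTH22 stood at 27.8 and 22.0 CPM in pBRN2 against 4.62 and 5.01 CPM in 35S, XTH4 at 462 and 528 against 132 and 136 CPM, and XTH5 at 192 and 296 against 76.0 and 74.0 CPM. XTH19 at 265 ± 28.5 against 101 ± 5.50 CPM and XTH27 at 67.3 ± 9.34 against 40.5 ± 1.31 CPM completed the 6. XTH17 went the other way from XTH19, at 31.6 ± 8.07 CPM in pBRN2 against 153 ± 8.46 CPM in 35S, and XTH18, at 262 ± 72.9 against 223 ± 13.3 CPM, did not pass. The lower members of largest change were XTH20 at 9.51 ± 0.973 CPM in pBRN2 against 122 ± 3.60 CPM in 35S, XTH32 at 1.10 ± 0.0260 against 8.02 ± 0.0900 CPM, XTH31 at 68.2 ± 23.0 against 339 ± 31.4 CPM, XTH17, and XTH15 at 42.6 ± 4.26 against 206 ± 10.7 CPM.

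Set directly against each other, pBRN2 and pGL2 differed in 24 of the 30 members, 15 higher in pBRN2 and 9 lower, where 48.7 percent of all genes differed. XTH17 stood at 31.6 ± 8.07 CPM in pBRN2 against 1076 ± 126 CPM in pGL2 (log2 change -5.09 ± 0.39 SE, edgeR adjusted p = 1.68e-11), and XTH22 at 24.9 ± 4.08 against 3.00 ± 0.422 CPM. XTH30, which lies with XTH27 to XTH29 and XTH33 in group III-B of the family, stood at 33.9 ± 3.75 against 353 ± 68.2 CPM. The 4 members XTH12 (AT5G57530), XTH13 (AT5G57540), XTH14 (AT4G25820) and XTH26 (AT4G28850) were all higher in pBRN2, and XTH14 and XTH26 are known from root hairs. XTH14 stood at 68.9 ± 11.9 CPM in pBRN2, against 20.7 ± 8.03 CPM in pGL2, and XTH26 at 3.98 and 3.29 CPM, against 0.172 and 0.328 CPM. Both were lower than in 35S in pGL2, pSCR and pSHR. The 5 root hair markers, which no line was named for, summed to 78.9 to 168 CPM in pBRN2, 38.2 to 62.0 CPM in pGL2, 12.7 to 25.1 CPM in pSCR, 7.66 to 21.1 CPM in pSHR and 93.9 to 137 CPM in 35S over all times, and their part in these differences was not tested.

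In the endodermal line pSCR, 4 members were higher and 17 lower than in 35S, where 12.4 percent of all genes were higher and 22 percent lower. The median log2 change was -2.999 over the members and -0.05 over all genes. XTH16 (AT3G23730, chromosome 3, 8550110 to 8551335) was the highest member per kilobase, at 402 ± 89.3 CPM per kilobase. It stood at 364 and 500 CPM in pSCR, against 83.1 and 80.3 CPM in 35S (log2 change 2.40 ± 0.84 SE, edgeR adjusted p = 0.028), a call that was lost without pSCR replicate 2 or either 35S library, with adjusted p up to 0.134 over the alternatives. The other higher members were XTH23 at 27.8 ± 3.18 against 13.3 ± 2.05 CPM, XTH30 at 205 ± 17.8 against 109 ± 7.51 CPM and XTH27 at 65.9 ± 23.0 against 40.5 ± 1.31 CPM. The lower members of largest change were XTH20, XTH18, XTH15, XTH17 and XTH10, with log2 changes from -5.41 ± 0.83 (SE) in XTH20 to -4.23 ± 0.37 (SE) in XTH10. Directly between pGL2 and pSCR, 14 members were higher in pGL2 and 6 lower, where 45.9 percent of all genes differed. The 6 lower in pGL2 were XTH9, XTH16, XTH23, XTH24, XTH27 and XTH28. XTH16 stood at 5.12 ± 2.38 CPM in pGL2, against 432 ± 96.0 CPM in pSCR (log2 change -6.40 ± 1.03 SE, edgeR adjusted p = 8.09e-06), and XTH17 at 1076 ± 126 against 7.57 ± 2.12 CPM.

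In the stele line pSHR, 2 members were higher and 16 lower than in 35S, where 7.73 percent of all genes were higher and 18.9 percent lower. The median log2 change was -0.98 over the members and 0.03 over all genes. The higher members were XTH15 (AT4G14130, chromosome 4, 8137051 to 8138281) and XTH21 (AT2G18800, chromosome 2, 8144912 to 8146265). XTH15 stood at 575 and 507 CPM in pSHR, against 214 and 198 CPM in 35S (log2 change 1.39 ± 0.29 SE, edgeR adjusted p = 0.000324). XTH21, with the windows found elsewhere given above, stood at 47.1 and 50.7 CPM against 19.7 and 22.0 CPM. The lower members of largest change were XTH17 (log2 change -5.17 ± 0.40 SE), XTH18 (-5.11 ± 0.45 SE), XTH5 (-4.71 ± 0.66 SE), XTH33 (-4.62 ± 0.37 SE) and XTH2, the last near 0 counts in pSHR. Against pSCR, 6 members were higher in pSHR and 6 lower, where 39.3 percent of all genes differed. Higher in pSHR were XTH7, XTH10, XTH15, XTH20, XTH21 and XTH32, with XTH15 at 541 ± 48.7 against 10.1 ± 0.494 CPM in pSCR, and XTH20 at 171 ± 14.7 against 2.84 ± 2.69 CPM. XTH33, lowest here of the 8 lines, stood at 0.175 ± 0.0134 CPM in pSHR against 1.21 ± 0.191 CPM in pSCR.

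**Figure D2:**
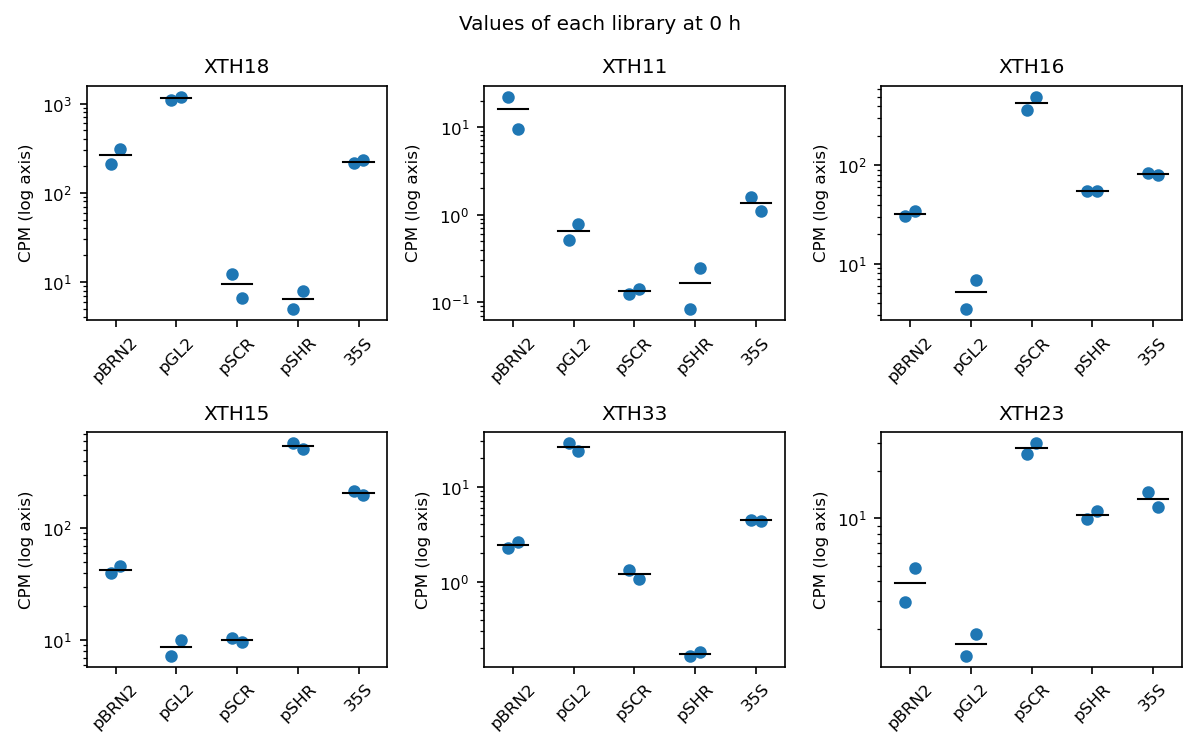
CPM of each library at 0 h (points, log axis) with the mean of 2 libraries (horizontal lines) for 6 members in pBRN2, pGL2, pSCR, pSHR and 35S. XTH18 and XTH33 are highest in pGL2, XTH11 in pBRN2, XTH16 and XTH23 in pSCR, and XTH15 in pSHR.

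Over the 24 group means, the pair of members with the most correlated levels, as log2(CPM + 1), was XTH10 and XTH15 (Pearson r = 0.991), followed by XTH15 and XTH21 (r = 0.975), XTH18 and XTH19 (r = 0.975), XTH10 and XTH21 (r = 0.968), and XTH5 and XTH18 (r = 0.956). XTH12 and XTH13, neighbours on chromosome 5, had r = 0.956. These values describe 24 groups that share lines and libraries, and XTH18 and XTH19 also share some reads.

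After brassinolide, XTH33 (AT1G10550, chromosome 1, 3479153 to 3480988) was the member that responded most widely. At 3 h its libraries lay above the 0 h libraries in 8 of 8 lines, and the fitted log2 change ran from 0.55 to 2.40. It passed the test at 3 h in 5 lines and at 8 h in 1 line. In pGL2 XTH33 stood at 103 and 103 CPM at 3 h and 74.7 and 63.8 CPM at 8 h, against 28.6 and 23.5 CPM at 0 h. The log2 change was 1.98 ± 0.25 (SE, edgeR adjusted p = 1.39e-05) at 3 h and 1.41 ± 0.25 (SE, edgeR adjusted p = 0.00118) at 8 h. In pBRN2 it stood at 6.91 and 11.5 CPM at 3 h, against 2.24 and 2.61 CPM at 0 h (edgeR adjusted p = 0.0002). In pSHR the levels were lower, at 0.851 and 1.03 CPM at 3 h against 0.166 and 0.185 CPM at 0 h (edgeR adjusted p = 0.0149), and in 35S XTH33 stood at 11.7 and 13.9 CPM against 4.49 and 4.32 CPM (edgeR adjusted p = 0.00383). In pSCR it stood at 2.35 and 4.27 CPM at 3 h against 1.34 and 1.07 CPM at 0 h and did not pass. In the libraries labelled pGL2(pSCRBRI1) it stood at 2.33 and 3.35 CPM at 3 h against 1.25 and 1.46 CPM at 0 h, and in pSCR(pSCRBRI1) at 16.3 and 14.4 against 10.8 and 10.1 CPM, and neither passed. Of the 23 calls of members over all brassinolide comparisons, XTH33 in pGL2 at 3 h was the 1 that passed under every alternative. The 35S call was lost without replicate 1 or replicate 2 at 0 h, and the pSHR call without either 0 h library or replicate 2 at 3 h, while the pBRN2 call at 3 h passed whichever single library was left out. The pGL2 call at 8 h was lost without replicate 2 at 0 h. No untreated library of 3 or 8 h was analysed here, so brassinolide and elapsed time with handling cannot be told apart.

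**Figure D3:**
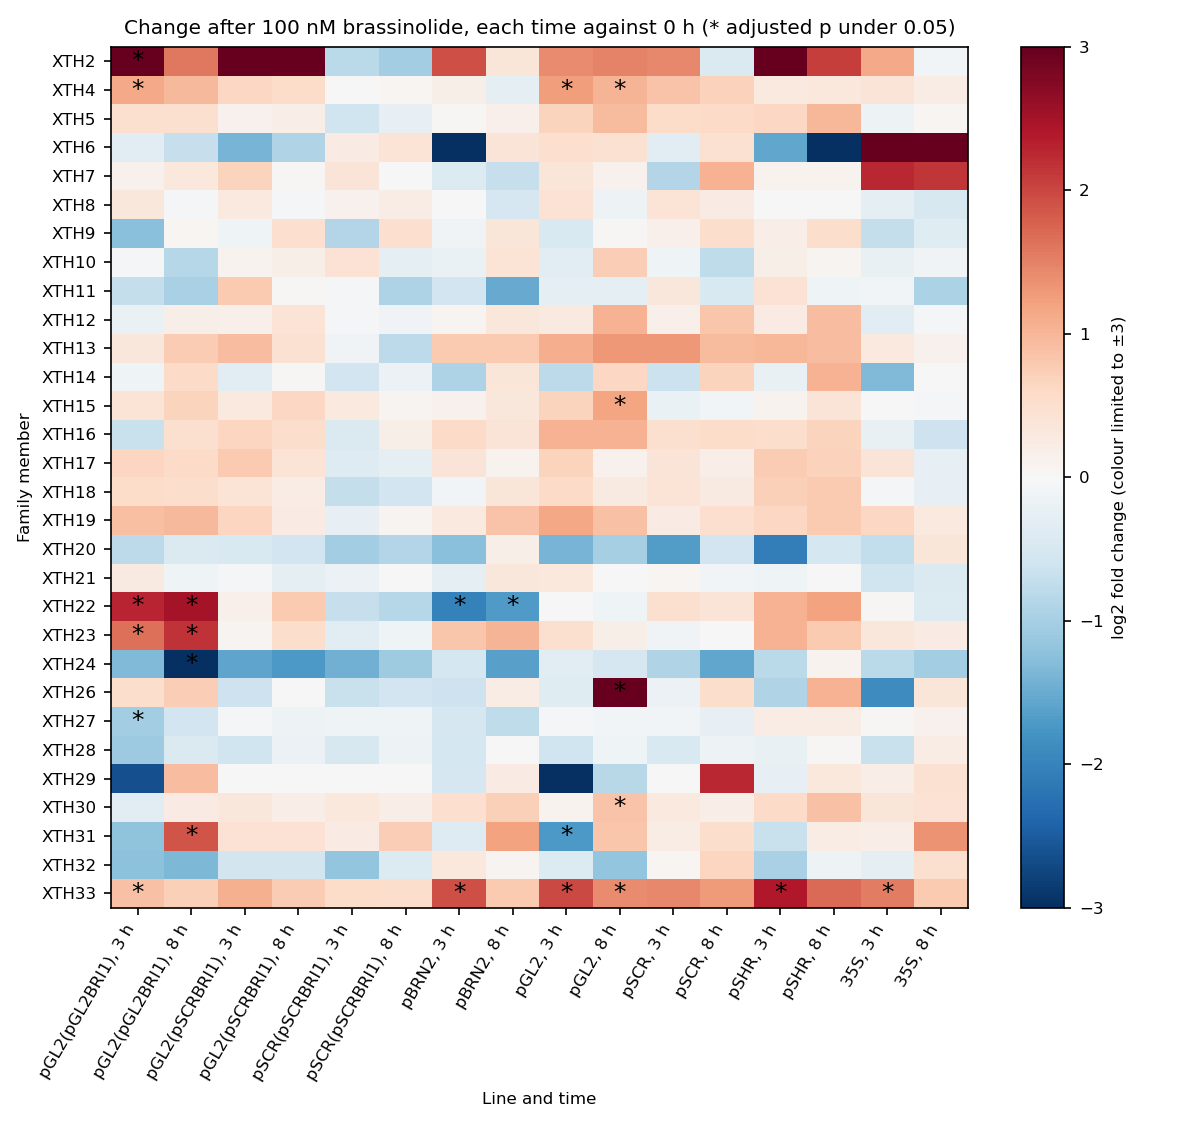
log2 fold change of the 30 tested members at 3 and 8 h of brassinolide against 0 h of the same line, for 8 lines, with colour limited to ±3 and a star where the edgeR adjusted p was under 0.05. The XTH33 row is positive in every column, at 0.53 to 2.40, and XTH22 is negative in pBRN2 and positive in pGL2(pGL2BRI1). XTH2, XTH6, XTH7 and XTH29 have few counts in most lines, and their colours there are uncertain.

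In 35S 1 member rose at 3 h and 0 changed at 8 h, where 0.31 and 0.429 percent of all genes changed. In pBRN2 the 3 h libraries gave 1 member higher and 1 lower, and those of 8 h gave 1 lower, where 0.915 and 1.12 percent of all genes changed. In pGL2 there were 2 higher and 1 lower at 3 h and 5 higher at 8 h, where 0.981 and 3.87 percent changed. With only the compared libraries in the fit, the pGL2 count at 3 h was 10 of the 30 members, and 0.981 percent is not the share of that fit. That setting can also move the calls over all genes, as in pGL2 against 35S at 0 h, with 12955 genes called against 10269 as reported. In pSCR 0 changed at either time, where 0.0429 and 0.0667 percent of all genes changed, and in pSHR 1 rose at 3 h and 0 changed at 8 h, where 0.0191 percent changed at each time. The unadjusted p was under 0.05 for 6 members in 35S at 8 h, 2 and 3 in pSCR at 3 and 8 h, and 5 in pSHR at 8 h. The same count over all genes was not made, so these numbers cannot be set against a share. Of these comparisons DESeq2 called 1 member, in pSCR at 3 h, and 0 in the others.

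The members that rose with XTH33 in pGL2 were XTH4 (AT2G06850, chromosome 2, 2763526 to 2765720), XTH15, XTH26 and XTH30 (AT1G32170, chromosome 1). XTH4 stood at 493 and 568 CPM at 3 h and 484 and 418 CPM at 8 h, against 239 and 208 CPM at 0 h (edgeR adjusted p = 0.0107 and 0.0247). XTH30 stood at 536 and 747 CPM at 8 h, against 401 and 305 CPM at 0 h (edgeR adjusted p = 0.0168). XTH31, of the endohydrolase group, fell in pGL2 at 3 h, to 76.2 and 76.3 CPM against 156 and 350.0 CPM at 0 h (edgeR adjusted p = 0.0487), and stood at 606 and 299.6 CPM at 8 h. The XTH31 log2 change was -1.03 without replicate 2 at 0 h and did not pass, and the XTH4 calls at 3 and 8 h were each lost without any 1 of the 4 libraries compared. XTH15 stood at 19.5 ± 12.01 CPM at 8 h against 8.61 ± 1.96 CPM at 0 h, and XTH26 at 2.23 ± 1.24 against 0.250 ± 0.110 CPM. Both were lost without either 0 h library or replicate 2 at 8 h, and XTH30 without replicate 2 at 0 h or at 8 h. XTH24 passed in no line at 3 h, and its log2 change was below 0 in 8 of 8 lines, from -1.58 to -0.34.

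In the root cap line XTH22 fell, which was opposite in direction to XTH33. It stood at 7.71 and 4.60 CPM at 3 h and 8.52 and 6.91 CPM at 8 h in pBRN2, against 27.8 and 22.0 CPM at 0 h. The log2 change was -2.02 ± 0.41 (SE, edgeR adjusted p = 0.0104) at 3 h and -1.70 ± 0.41 (SE, edgeR adjusted p = 0.0313) at 8 h. The 3 h call was lost without replicate 1 at 0 h or replicate 2 at 3 h, and the 8 h call without either 0 h library or replicate 2 at 8 h. In pGL2(pGL2BRI1) XTH22 rose, to 46.5 and 58.6 CPM at 3 h and 66.9 and 55.2 CPM at 8 h against 13.5 and 8.16 CPM at 0 h (log2 changes 2.28 ± 0.41 and 2.50 ± 0.41 SE, edgeR adjusted p = 0.00137 and 0.000886). Among other settings, its 3 h call was lost without replicate 2 at 0 h, and its 8 h call when only the compared libraries were fitted. The fit without the 3 libraries of this line that hold endodermis markers is given below. The response of pGL2(pGL2BRI1) minus that of pBRN2, a comparison chosen after these values were seen, differed by 4.30 ± 0.58 at 3 h and 4.19 ± 0.58 at 8 h (log2, SE, edgeR adjusted p = 0.000608 and 0.000511). XTH22 was the 1 member that passed there at each time, where 0.133 and 0.171 percent of all genes passed. In the Col-0 line pGL2 XTH22 stood at 1.88 and 4.18 CPM at 3 h and 3.30 and 2.70 CPM at 0 h and did not pass.

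In pGL2(pGL2BRI1) the response took in 5 higher members and 1 lower at 3 h, and 3 higher and 1 lower at 8 h, where 2.72 and 1.39 percent of all genes changed. Beside XTH22 and XTH33, XTH23 (AT4G25810) rose to 25.6 and 41.9 CPM at 3 h and 56.5 and 38.8 CPM at 8 h, against 11.8 and 9.56 CPM at 0 h (log2 change 2.16 ± 0.32 SE at 8 h, edgeR adjusted p = 0.000153). XTH4 stood at 522 and 776 CPM at 3 h against 324 and 261 CPM at 0 h, and XTH2 at 15.6 and 8.00 against 0.823 and 1.73 CPM. XTH24 fell to 1.82 and 1.83 CPM at 8 h against 31.05 and 15.3 CPM at 0 h (log2 change -3.66 ± 0.59 SE, edgeR adjusted p = 0.000745), and XTH27 fell to 13.8 and 16.1 CPM at 3 h against 30.4 and 30.9 CPM. XTH31 rose at 8 h to 1485 and 663 CPM against 345 and 238 CPM. At 3 h XTH4, XTH23, XTH27 and XTH33 were each lost without replicate 2 at 0 h, among other libraries, and XTH2 without replicate 1 at 0 h, and at 8 h XTH31 was lost without either 0 h library or replicate 1 at 8 h. With only the compared libraries in the fit, 0 members passed at 8 h, so the XTH23 and XTH24 calls were lost there too. Without the 3 libraries of this line that hold endodermis markers, 0 members passed at 3 h and 2 at 8 h, XTH23 and XTH24. Each group was then 1 library, assumed to vary like the other groups, and XTH22 had log2 changes of 2.11 and 2.32. In the libraries labelled pGL2(pSCRBRI1) 0 members passed at 3 or 8 h, where 0.224 and 0.11 percent of all genes did, and in pSCR(pSCRBRI1) 0 passed at 3 or 8 h, where 0 percent of all genes did. The unadjusted p was under 0.05 for 4 and 4 members and for 2 and 3 members there, which was not counted over all genes. DESeq2 called 0 members in each.

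The responses of the complemented and Col-0 lines were also compared as differences of log2 changes, and 0 members passed in edgeR. The shares of all genes that passed were 0.0286 and 0.00953 percent for pGL2(pGL2BRI1) minus pGL2 at 3 and 8 h, 0 percent at both times for pSCR(pSCRBRI1) minus pSCR, and 0 and 0.105 percent for pBRN2 minus pGL2. Unadjusted p was under 0.05 for 5 and 6, 3 and 1, and 3 and 5 members, which was not counted over all genes. DESeq2 called 2 members for pGL2(pGL2BRI1) minus pGL2 at 8 h and 0 elsewhere. XTH22 differed by 2.63 ± 0.60 log2 there (edgeR adjusted p = 0.364), and XTH33 at 3 h by -1.11 ± 0.35 (edgeR adjusted p = 0.691).

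The complemented lines were compared, time by time, to Col-0 roots tagged from the same promoter. In pGL2(pGL2BRI1) against pGL2, 8 members were higher and 1 lower at 0 h, 6 higher and 0 lower at 3 h, and 5 higher and 0 lower at 8 h, where 11.4, 14.5 and 4.35 percent of all genes differed. Of the genes that differed, 58.3, 53.8 and 75.7 percent were higher. Without the 3 libraries with endodermis markers each pGL2(pGL2BRI1) group was 1 library, so counts from that fit are not set against these shares. In pSCR(pSCRBRI1) against pSCR, 8, 4 and 6 were higher at 0, 3 and 8 h and 0 lower, where 2.99, 2.01 and 2.02 percent of all genes differed. Most of the genes that differed were also higher in this pair, at 84.5, 87.7 and 86.6 percent, so the direction is not particular to the family. XTH22, XTH23 and XTH33 were higher in both pairs at all 3 times, and XTH24 in both pairs at 0 h. The XTH33 calls passed in both pairs at all 3 times whichever single library was left out. XTH22 was lost without 1 library or another in pGL2(pGL2BRI1) at 0 h and in pSCR(pSCRBRI1) at 3 and 8 h, with adjusted p up to 0.103, 0.166 and 0.197, and XTH23 in pSCR(pSCRBRI1) at 3 h, with adjusted p up to 0.0556.

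XTH33 stood at 191 and 127 CPM in pGL2(pGL2BRI1) at 0 h, against 28.6 and 23.5 CPM in pGL2 (log2 change 2.61 ± 0.26 SE, edgeR adjusted p = 1.02e-07). It stood at 10.8 and 10.1 CPM in pSCR(pSCRBRI1) at 0 h, against 1.34 and 1.07 CPM in pSCR (log2 change 3.11 ± 0.30 SE, edgeR adjusted p = 6.17e-08). In both pairs the complemented libraries lay above every Col-0 library of the same promoter and time. XTH22 stood at 66.9 and 55.2 CPM in pGL2(pGL2BRI1) at 8 h, against 2.55 and 2.95 CPM in pGL2, a ratio of means of 22.2. It stood at 19.5 and 39.0 CPM in pSCR(pSCRBRI1) at 0 h, against 3.57 and 2.43 CPM in pSCR (log2 change 3.28 ± 0.44 SE, edgeR adjusted p = 2.37e-05). XTH23 stood at 90.3 and 129 CPM in pSCR(pSCRBRI1) at 0 h, against 25.5 and 30.0 CPM in pSCR, and at 11.8 and 9.56 CPM in pGL2(pGL2BRI1), against 1.34 and 1.84 CPM in pGL2. XTH24 (AT4G30270), the neighbour of XTH18 and XTH19, stood at 122 and 206 CPM in pSCR(pSCRBRI1) at 0 h, against 29.5 and 50.4 CPM in pSCR (edgeR adjusted p = 0.0238, lost without either pSCR library or replicate 2 of pSCR(pSCRBRI1)), and at 31.05 and 15.3 against 3.27 and 3.36 CPM in pGL2(pGL2BRI1) and pGL2 (edgeR adjusted p = 0.00173). At 8 h XTH24 stood at 1.82 and 1.83 CPM in pGL2(pGL2BRI1) against 2.26 and 2.39 CPM in pGL2 and did not pass.

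**Figure D4:**
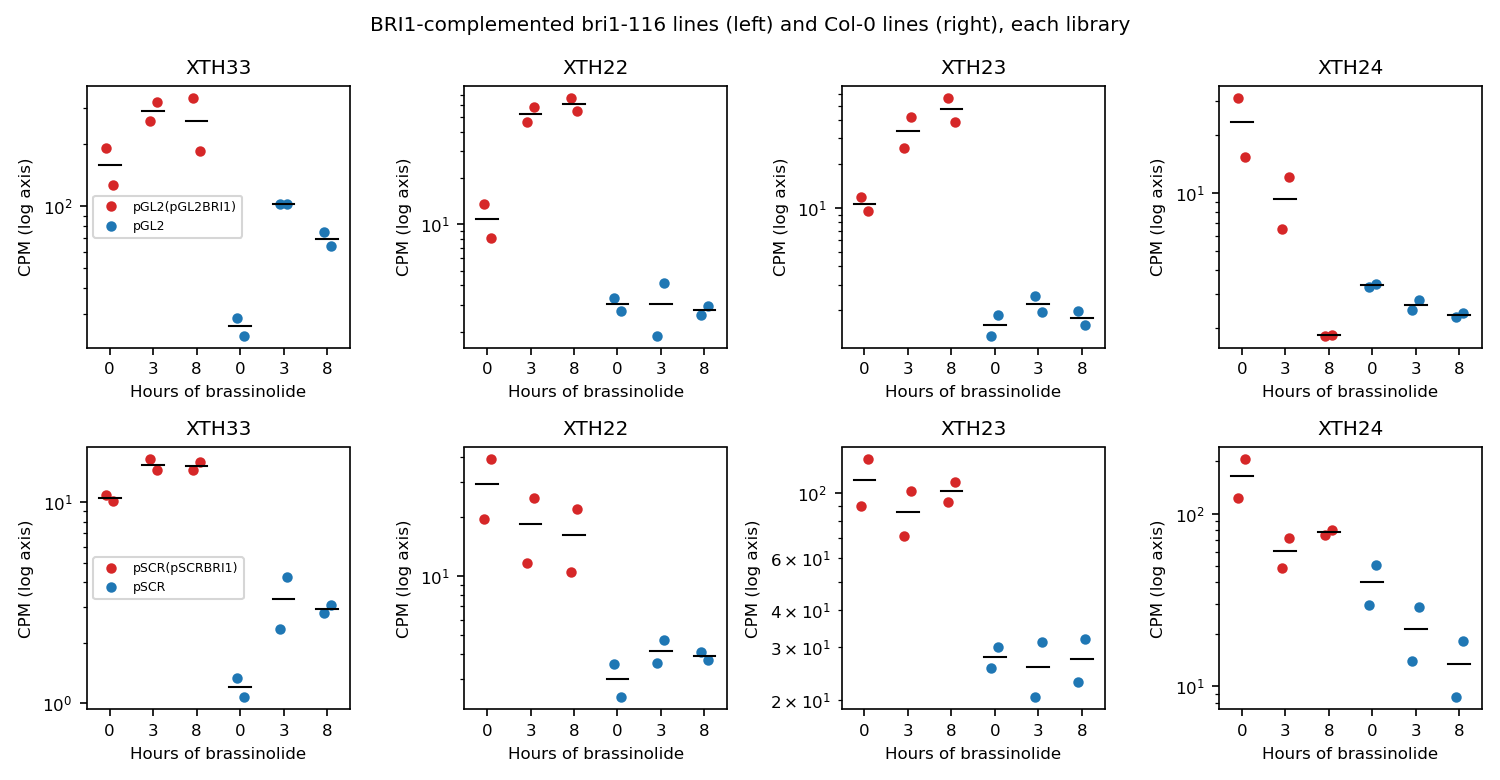
CPM of each library (points, log axis) and the mean of 2 libraries (horizontal lines) for XTH33, XTH22, XTH23 and XTH24 at 0, 3 and 8 h of brassinolide, in pGL2(pGL2BRI1) left of pGL2 (top) and pSCR(pSCRBRI1) left of pSCR (bottom). All complemented libraries of XTH33, XTH22 and XTH23 lie above the Col-0 libraries of the same time, and XTH24 in pGL2(pGL2BRI1) is below pGL2 at 8 h at 1.82 and 1.83 CPM.

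The 8 members higher in pSCR(pSCRBRI1) than in pSCR at 0 h were XTH17, XTH18 and XTH33, whose highest Col-0 mean was in pGL2, XTH4, XTH5 and XTH22, whose highest was in pBRN2, and XTH23 and XTH24, whose highest was in pSCR. The other members with their highest mean in pGL2 or pBRN2 did not pass. XTH18 stood at 55.6 and 71.5 CPM at 0 h, against 12.4 and 6.54 CPM in pSCR (log2 change 2.74 ± 0.41 SE, edgeR adjusted p = 7.63e-05), and XTH5 at 54.3 and 24.4 CPM against 3.65 and 4.44 CPM. XTH17, at 18.3 and 24.2 against 9.07 and 6.07 CPM, and XTH4, at 175 and 139 against 64.7 and 92.7 CPM, were higher too, and XTH19, at 12.4 ± 2.45 against 6.23 ± 1.35 CPM, did not pass. XTH4 and XTH5 were each lost without replicate 1 of either line, and XTH17 without replicate 2 of either line. The 5 non-hair epidermis markers were at 2.42 to 4.30 percent of the pGL2 level in pSCR(pSCRBRI1) over all times, against 2.19 to 4.57 percent in pSCR, and the 5 root hair markers summed to 26.5 to 37.6 CPM against 12.7 to 25.1 CPM, whose part in this was not tested.

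In pGL2(pGL2BRI1) the members higher at 0 h than in pGL2 also included XTH16, XTH26, XTH27 and XTH30. XTH27 stood at 30.4 and 30.9 CPM, against 8.43 and 8.61 CPM in pGL2 (log2 change 1.85 ± 0.24 SE, edgeR adjusted p = 6.94e-06). XTH16 stood at 6.26 and 101 CPM, against 3.44 and 6.80 CPM in pGL2, and the groups overlapped. The library at 101 CPM is the one with endodermis markers at 27.5 percent of the pSCR level, and without the 3 such libraries the XTH16 log2 change was 0.29 and did not pass. XTH17 was higher at 8 h alone, with 3538 and 1728 CPM against 1155 and 1190 CPM in pGL2 (edgeR adjusted p = 0.04, lost without either pGL2 library or replicate 1 of pGL2(pGL2BRI1)). In all 3 times the library with the note on read length, which holds few endodermis markers, had the higher XTH17, XTH18 and XTH19 level of its pair.

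The libraries labelled pGL2(pSCRBRI1) differed from pGL2 at 0 h in 21 members, 9 higher and 12 lower, where 47.9 percent of all genes differed, and from pSCR in 1 member, where 0.972 percent did. XTH17 stood at 6.90 and 9.44 CPM in these libraries, against 987 and 1166 CPM in pGL2, and XTH16 at 300 and 305 CPM against 3.44 and 6.80 CPM. The member that differed from pSCR was XTH22, at 16.3 and 7.09 CPM against 3.57 and 2.43 CPM in pSCR (log2 change 1.96 ± 0.43 SE, edgeR adjusted p = 0.0208). That call was lost without either pSCR library or replicate 1 of pGL2(pSCRBRI1).

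The region before the start of 2 of the members raised in the complemented lines is shown for reference, as the 300 bases before the RefSeq start in TAIR10.1. Capitals mark matches on either strand to CGTGTG and the related element CGTGCG, which the brassinosteroid factor BZR1 is known to bind, and to the E-box CANNTG, which BES1 is known to bind.
XTH33 (chr1:3481042-3481341, minus strand): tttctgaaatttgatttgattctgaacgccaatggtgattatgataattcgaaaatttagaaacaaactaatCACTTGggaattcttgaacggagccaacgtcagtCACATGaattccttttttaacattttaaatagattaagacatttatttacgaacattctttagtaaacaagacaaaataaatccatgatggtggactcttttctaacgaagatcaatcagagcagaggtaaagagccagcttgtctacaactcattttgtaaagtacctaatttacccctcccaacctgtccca
XTH23 (chr4:13128094-13128393, plus strand): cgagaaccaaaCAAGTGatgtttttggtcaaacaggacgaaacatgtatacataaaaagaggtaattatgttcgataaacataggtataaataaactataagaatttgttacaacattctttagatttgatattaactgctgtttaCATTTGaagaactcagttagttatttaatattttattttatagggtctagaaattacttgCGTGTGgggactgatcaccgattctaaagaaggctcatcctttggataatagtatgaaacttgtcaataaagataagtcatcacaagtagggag
The window of XTH33 held 2 matches to CANNTG and 0 to the other 2 motifs, and that of XTH23 held 2 to CANNTG and 1 to CGTGTG. The window of XTH22 held 0 of the 3 motifs. Among the 33 members, 4 windows (12.1 percent) held CGTGTG or CGTGCG and 22 (66.7 percent) held CANNTG, against 7.64 and 61.9 percent of 27443 protein-coding genes.

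The other genes of the xyloglucan pathway, 15 that build the polymer and 5 that trim it, were followed as a list of 20, all tested. In pGL2 at 0 h 12 were higher and 2 lower than in 35S, with a median log2 change of 0.61 against -0.12 over all genes, of which 23 percent were higher and 25.9 percent lower. Among them were CSLC4, which makes the glucan backbone, at 1.30 (edgeR adjusted p = 1.8e-05), the fucosidase gene AXY8 at 1.92 (edgeR adjusted p = 2.2e-06), and the galactosyltransferase gene MUR3 at 0.76 (edgeR adjusted p = 0.0015). In pSCR 1 was higher and 9 lower than in 35S, where 12.4 and 22 percent of all genes were, with the galactosyltransferase gene XLT2 at -2.70 (edgeR adjusted p = 3.7e-08), and AXY4, which adds acetyl groups, was the 1 higher at 1.29. In pBRN2 3 were higher and 5 lower, where 18.1 and 22.9 percent of all genes were, and in pSHR 2 were higher and 4 lower, where 7.73 and 18.9 percent of all genes were, so the shares of the list lay near those of all genes in both lines. After brassinolide CSLC4 in pGL2 at 3 h, at 1.06 (edgeR adjusted p = 0.0089), was the 1 call of the list over 16 comparisons, and 0.981 percent of all genes changed there. Against pGL2, pGL2(pGL2BRI1) had 0 higher and 1, 5 and 0 lower at 0, 3 and 8 h, where 11.4, 14.5 and 4.35 percent of all genes differed in either direction. The genes lower there numbered 996, 1407 and 222 of the 20995 tested. The list had 0 changed in pSCR(pSCRBRI1) against pSCR at each time, where 2.99, 2.01 and 2.02 percent of all genes differed.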

How the data were processed

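Polysome-bound mRNA was sequenced in 48 libraries, 2 biological repetitions in each of 24 groups, from a kit that does not mark strand. Per the submitters' processing notes, TopHat2 2.0.9 mapped the reads on TAIR10 and HTSeq 0.5.3p3 counted them. The authors deposited raw read counts, 1 whole number for each gene and library, and the table held 0 columns of other samples.

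The counts were tested with edgeR 4.0.16 (R 4.3.3) after filterByExpr, which left 20995 genes, and TMM scaling. All 48 libraries entered 1 quasi-likelihood fit with 1 mean per group, robust estimation and Benjamini-Hochberg adjustment within each comparison, at a threshold of 0.05. Alternatives were DESeq2 1.42.0, RLE scaling, no filter, the compared libraries alone, a replicate block, a read-note term, leaving out each library, and leaving out the 3 pGL2(pGL2BRI1) libraries without a read note. Totals ran from 20556381 to 37685541 counts. Same-numbered libraries had correlated deviations from -0.574 to 0.629 over 31 comparisons. Against 0 h of the same line, the correlation at 3 and 8 h was 0.608 and 0.511 in pSCR and 0.436 and 0.332 in pBRN2. It was 0.368 and 0.353 in pGL2(pSCRBRI1) and 0.372 and 0.385 in pSCR(pSCRBRI1). It was negative in pGL2(pGL2BRI1) at 3 h (-0.574) and in 35S at 8 h (-0.206). The numbers were not taken to pair samples. The replicate block was a term shared by all lines, so a pairing of equal numbers within single lines was not tested.

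The members, the pathway and marker lists and the comparisons were chosen with earlier results of these data known. By rule, any member could be named, those called most often with every library's value, and in each comparison up to 5 higher and 5 lower called members of largest log2 change first. The most correlated pairs were named as a description. Levels per kilobase use the exon length within the deposited gene span.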

Additional observations from a re-analysis of the deposited data

Results flagged for a closer look

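XTH22 (TCH4) changed after brassinolide in opposite directions in 2 lines, and the difference itself passed the test. The response of pGL2(pGL2BRI1) minus that of pBRN2 was 4.30 log2 at 3 h and 4.19 log2 at 8 h (SE 0.58 at both times, edgeR adjusted p = 0.000608 and 0.000511). The 2 libraries of pGL2(pGL2BRI1) lay above their 0 h libraries at both times, and the 2 libraries of pBRN2 lay below theirs. The difference at 3 h did not pass when only the compared libraries were fitted (adjusted p = 0.104). The lines differ in tissue, in BRI1 source and in the bri1-116 background, and these cannot be told apart here. Nor can brassinolide be told apart from elapsed time with handling in either line. The comparison was chosen after the values were seen.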

How the results depend on the processing

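Of 224 member calls, 136 passed under every alternative, 59 of 83 between a tissue line and 35S, 43 of 56 between tissue lines, 32 of 60 between complemented and Col-0 lines, 1 of 23 for brassinolide and 1 of 2 for differences of responses. None changed sign.

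With only the compared libraries in the fit, calls of members after brassinolide numbered 0 for 35S at 3 h (1 as reported), 0 for pBRN2 at 3 h (2 as reported), 10 for pGL2 at 3 h (3), 0 for pSHR at 3 h (1), 2 for pSHR at 8 h (0), 1 for pGL2(pGL2BRI1) at 3 h (6), 0 for it at 8 h (4) and 1 for pGL2(pSCRBRI1) at 8 h (0). They numbered 2 for pGL2(pGL2BRI1) against pGL2 at 8 h (5), 0 for pGL2(pSCRBRI1) against pSCR (1) and 0 for the XTH22 response difference at 3 h (1, adjusted p = 0.104). Without a filter on low counts they were 0 for pBRN2 at 8 h (1) and 1 for pSCR at 3 h (0). DESeq2 gave 3 for pBRN2 at 8 h, 1 for pSCR at 3 h and 2 for the response of pGL2(pGL2BRI1) minus pGL2 at 8 h (0). Without the 3 pGL2(pGL2BRI1) libraries lacking the read note, that line had 0 calls at 3 h and 2 at 8 h. For the pathway list, RLE scaling and DESeq2 each gave 1 call in pGL2 at 8 h (0), DESeq2 gave 2 for pGL2(pGL2BRI1) against pGL2 at 0 h (1), and at 8 h RLE gave 1 and DESeq2 gave 2 (0). The shares of all genes given above belong to the fit as reported, not to these settings. The cause of these moves was not tested.

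Leaving out 1 library at a time gave 0 to 1 calls for 35S at 3 h and at 8 h, 1 to 2 for pBRN2 at 3 h and 0 to 4 at 8 h, 1 to 2 for pGL2 at 3 h and 0 to 5 at 8 h, 0 to 1 for pSCR at 3 h and pSHR at 3 h, and 1 to 6 and 3 to 7 for pGL2(pGL2BRI1) at 3 and 8 h. It gave 4 to 8 and 3 to 7 for pGL2(pGL2BRI1) against pGL2 at 0 and 3 h, 5 to 6, 1 to 3 and 2 to 5 for pSCR(pSCRBRI1) against pSCR at 0, 3 and 8 h, and 0 to 1 for pGL2(pSCRBRI1) against pSCR.

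With the replicate block 220 of the 224 calls passed and no count moved by over 1.5 times. A crossed block, added after seeing the data, moved no count in the 6 comparisons it was run for. RLE scaling moved the median log2 change of all genes in pBRN2 against 35S to -0.04 (-0.14 as reported). It also moved the split of the genes called against 35S, so the shares higher and lower depend on the scaling. The higher ones made up 51.1 percent in pBRN2 (44.1 as reported), 51.9 in pGL2 (47.1), 40.6 in pSCR (35.9) and 35.1 in pSHR (29.0). Each locus had 1 entry, so summing entries gave no other value.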
